A study of Mus musculus with 6 samples.

Results

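The genes described here are those that build cholesterol and fatty acids and those that set how much of both is made, measured in mouse ovarian surface epithelial cells before and after spontaneous transformation. They were 35 of the 20405 genes with a symbol on the array, chosen by symbol for their roles, and each was represented by its probe set with the highest mean over all arrays. RNA levels were read on a whole-transcript Affymetrix array for mouse genes (Gene 1.0 ST), on which probes along a transcript are summarized to a log2 value of robust multi-array average (RMA) intensity. M0505 is a line of ovarian surface epithelium, the single layer of cells that covers the ovary, from FVB/N mice, used at early passage (3 arrays). STOSE is the spontaneously transformed line that emerged when M0505 was passaged for a long time (3 arrays). The labels name no engineered allele and no agent for either line, and both were grown in the same medium with fetal calf serum, epidermal growth factor and an insulin supplement. Each group is 1 cell line, so the comparison sets a single transformed line against its parent, and p-values measure the spread between the 3 arrays of a line.

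Cholesterol is made from acetyl-CoA through mevalonate, farnesyl diphosphate and squalene to lanosterol, which is then trimmed to cholesterol in the endoplasmic reticulum. When sterols run low there, SCAP carries the SREBP transcription factors to the Golgi, where they are cleaved, and the released factor switches on the sterol enzymes; when sterols are plentiful, INSIG proteins hold SCAP back. SREBP-2 (Srebf2) mainly drives the sterol genes and SREBP-1 (Srebf1) the fatty acid genes, while the oxysterol receptors LXRα (Nr1h3) and LXRβ (Nr1h2) raise Srebf1 and sterol export.

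All 10 markers of ovarian surface epithelium examined were above background in both lines. Background was set at 4.72 on the log2 scale, the 95th percentile of 1134 olfactory receptor probe sets. The list was lower as a whole in STOSE, with 9 of 10 markers lower at the adjusted p alone, 4 of them past 2-fold, and a median log2 fold change of -0.74. The keratins Krt8 and Krt19 fell from 11.37 to 6.82 and from 11.17 to 5.61, and Wt1, Msln and Upk3b were lower by less, with STOSE means from 10.52 to 11.91. The summed linear level of the 10 markers ranged from 28192 to 29808 on M0505 arrays and from 16144 to 17322 on STOSE arrays. Of the other cell types looked for, the defining markers Ptprc (leukocytes) and Adipoq (adipocytes) were under background in both lines. Other markers of these types were not: 3 of 9 leukocyte and 4 of 6 adipocyte markers were above background in each line. The same held for 6 of 7 stromal markers. The summed levels of 9 leukocyte markers (909 to 1170 against 369 to 397), 7 endothelial markers (909 to 991 against 196 to 215) and 8 granulosa or steroidogenic markers (920 to 1041 against 227 to 258) were lower on the STOSE arrays. Those sums were led by Cd68, Kdr and Inha, and 3, 5 and 2 of the markers, respectively, were above background in M0505. Most single markers did not follow the sums: 7 of 9, 5 of 7 and 5 of 8 had a log2 fold change above 0, with medians of 0.09, 0.06 and 0.12, and at the adjusted p alone 3 were higher and 1 lower, 2 higher and 2 lower, and 3 higher and 2 lower. The sums of 7 stromal markers (5818 to 6245 against 5696 to 6025) overlapped, and those of 6 adipocyte markers (179 to 191 against 198 to 205) were higher in STOSE. The part of these differences in the results below was not tested. In bulk RNA, fewer cells of a type and less RNA per cell cannot be told apart.

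The promoters of Hmgcs1 and Tm7sf2, the enzymes past 2-fold, and of Hsd17b7, the sterol enzyme with the largest increase, are shown because SREBPs act together with NF-Y, which binds CCAAT, and Sp1, which binds GC boxes. The 160 bases directly before the annotated start are printed from RefSeq (GRCm38.p6), in the direction of transcription, for Hmgcs1 (chr13:119690191-119690350, plus strand), Tm7sf2 (chr19:6067851-6068010, minus strand) and Hsd17b7 (chr1:169969206-169969365, minus strand). The build used for the array annotation is not given in the sources used here, and these coordinates are those of the RefSeq table. Capitals mark matches, on either strand, to the sterol regulatory element letters TCACNCCAC, to CCAAT, to the GC box GGGCGG and to the E-box CACGTG.
Hmgcs1: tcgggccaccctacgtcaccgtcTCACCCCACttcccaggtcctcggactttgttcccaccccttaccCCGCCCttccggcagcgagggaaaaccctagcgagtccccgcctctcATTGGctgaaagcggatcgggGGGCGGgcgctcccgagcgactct
Tm7sf2: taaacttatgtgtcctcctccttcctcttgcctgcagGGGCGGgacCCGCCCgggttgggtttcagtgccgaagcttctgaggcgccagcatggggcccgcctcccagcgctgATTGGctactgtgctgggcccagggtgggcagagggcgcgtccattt
Hsd17b7: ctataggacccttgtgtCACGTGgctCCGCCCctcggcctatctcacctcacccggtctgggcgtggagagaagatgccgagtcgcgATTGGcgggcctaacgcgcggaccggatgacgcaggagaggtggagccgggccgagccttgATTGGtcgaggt
The sterol element in the Hmgcs1 promoter began at base -137 from the start, and it was the only match to those letters among the 15 sterol enzymes with a promoter in the table.

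Over windows of 250 bases before to 50 after the start, 28 of the 35 genes matched the promoter table. CCAAT was present in 14 of the 15 sterol enzymes (93.3%), all but Acat2, against 41.1% of all 27025 genes in the table and 43.4% of the 7121 whose mean signal lay above the median of the genes on the array (the brighter genes). The GC box was present in 14 of 15 (93.3%), all but Pmvk, against 38.2% of all genes and 73.0% of the brighter ones. Both were found in one window in 13 of the 15 sterol enzymes (86.7%), in 14.5% of all genes and in 29.4% of the brighter ones. The fatty acid genes looked otherwise, with CCAAT in 2 of 6 and a GC box in 2 of 6. CACGTG was found in 3 of 15 sterol enzymes (20%; Dhcr7, Hsd17b7 and Sc5d) against 8.09% of all genes and 12.6% of the brighter ones. None of the 4 motifs contains another, and a match describes the sequence and not binding. CCAAT was found both in Tm7sf2, which fell in STOSE, and in Hsd17b7, which rose.

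STOSE and M0505 were compared to ask which steps of lipid synthesis differed in RNA level after transformation. More of the 35 genes were lower than higher in STOSE, 11 of the 14 decreases lay in the second stretch of cholesterol synthesis and in its regulators, and 3 of the 6 increases lay in fatty acid synthesis. Hmgcs1 and Tm7sf2 were the only 2 genes (5.71%) past the threshold of an adjusted p under 0.05 and at least a 2-fold change, both of them lower, where 7.59% of all genes were called lower. None was called higher, where 4.90% of all genes were. At the adjusted p alone (limma, Benjamini-Hochberg over 20405 genes) 14 genes (40.0%) were lower and 6 (17.1%) higher, against 24.8% and 31.6% of all genes, and 15 did not pass. Most of the 35 genes were bright, and among the genes brighter than the median 37.8% were lower and 38% higher at the adjusted p alone, so the share of decreases was close to that of genes of like brightness and the share of increases was below it. At 2-fold, 10.8% of the brighter genes were lower. The median log2 fold change of the 35 genes was -0.15, that of all genes was 0.08 and that of the brighter genes 0.00. The arrays of both lines did not overlap in 19 of the 35 genes (54.3%; 12 lower and 7 higher), against 64.6% of all genes, with 27.0% of all genes lower in this way, and 82.3% of the brighter genes. None of the 35 genes was under background in both lines. When each array was centred on the median of the genes with a symbol, every log2 fold change moved up by 0.20, the all-gene median became 0.28 and that of the 35 genes 0.05, with 11 genes lower and 10 higher at the adjusted p alone. The shares of all genes given above belong to the fit without this centring, and none is given at the adjusted p alone for the centred fit. At 2-fold, the centred fit called 1177 of all genes lower and 1466 higher, and 1 and 0 of the 35 genes. The median of the 35 genes thus lay 0.23 below that of all genes in either scaling.

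**Figure D1:**
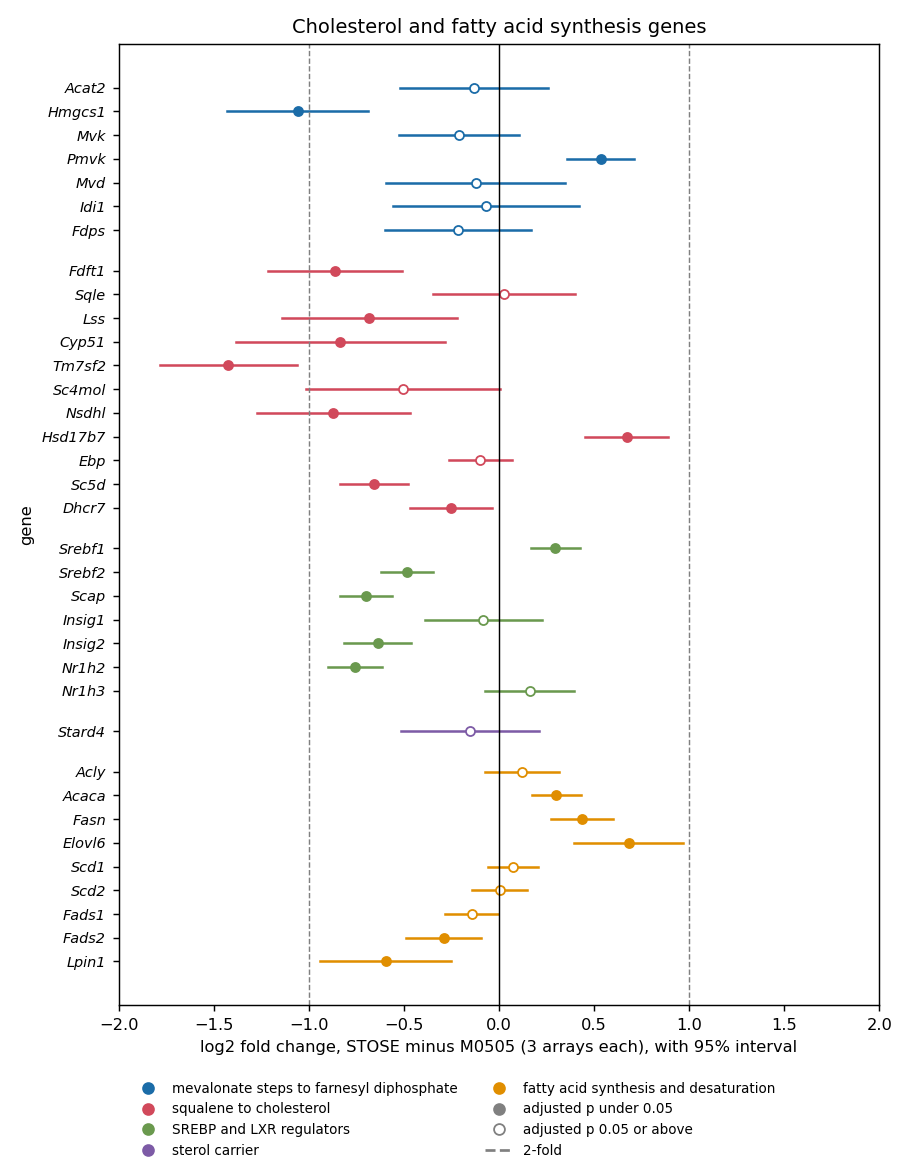
Log2 fold change (STOSE minus M0505, x axis) of the 35 genes, grouped by role on the y axis, with 95% intervals of limma from 3 arrays per line; filled points have an adjusted p under 0.05 and dashed lines mark 2-fold. Hmgcs1 and Tm7sf2 lie beyond the lower 2-fold line, and 4 of 7 regulators and 7 of 11 enzymes from squalene to cholesterol are filled below 0.

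The first stretch, from acetyl-CoA to farnesyl diphosphate, changed at 2 of its 7 genes. Hmgcs1, the cytosolic synthase that makes HMG-CoA, read 10.32, 10.71 and 10.73 on the M0505 arrays and 9.24, 9.52 and 9.83 on the STOSE arrays (log2). Every STOSE array lay under every M0505 array. The level fell by 1.06 on the log2 scale (SE 0.16, adjusted p = 5.9e-04), so that M0505 was 2.08-fold higher. That size sits at the 2-fold line: the log2 fold change was -0.997 when M0505 replicate 2 was left out, -0.99 when M0505 replicate 3 was and -0.92 when STOSE replicate 1 was, each short of 2-fold. Pmvk, which phosphorylates phosphomevalonate, went the other way, with 5.42, 5.59 and 5.58 in M0505 and 5.98, 6.05 and 6.17 in STOSE. The groups did not overlap, and the log2 difference was 0.54 (SE 0.08, adjusted p = 4.0e-04). The remaining 5 enzymes, Acat2, Mvk, Mvd, Idi1 and Fdps, had log2 fold changes from -0.21 to -0.07 and overlapping arrays. Their intervals were wide: that of Idi1, the isopentenyl diphosphate isomerase, ran from -0.56 to 0.42. The median of the 7 genes was -0.13.

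From squalene onward, 7 of 11 enzymes fell, 1 rose and 3 did not pass the adjusted p, with a median log2 fold change of -0.66. Tm7sf2, one of the sterol C14 reductases, had the largest decrease of the 35 genes. It read 6.89, 7.32 and 7.54 in M0505 and 5.66, 5.86 and 5.95 in STOSE (log2), with a wide gap between the groups. The log2 fold change was -1.42 (SE 0.16, adjusted p = 8.3e-05), and M0505 was 2.68-fold higher. It stayed past 2-fold with any array left out, from -1.603 to -1.28. Hsd17b7, the sterol 3-keto reductase, was the only enzyme of this stretch that rose. Its values were 9.11, 9.33 and 9.27 in M0505 and 9.76, 9.90 and 10.07 in STOSE, again without overlap. The difference was 0.67 on the log2 scale (SE 0.10, adjusted p = 3.9e-04).

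Hsd17b7 forms the C4 demethylation complex with Nsdhl and Sc4mol (Msmo1), and the 3 genes did not move together. Nsdhl, the dehydrogenase of the complex, fell by 0.87 (SE 0.18, adjusted p = 2.9e-03). Sc4mol, the oxidase, had a log2 fold change of -0.51 that did not pass (adjusted p = 0.083). Among the other enzymes, Fdft1 (squalene synthase) fell by 0.86 (adjusted p = 1.4e-03), and its second probe set gave -0.79. Sc5d, the lathosterol desaturase, fell by 0.66 with little spread between arrays (SE 0.08, adjusted p = 1.3e-04). Cyp51, the lanosterol 14α-demethylase, fell by 0.83 with an adjusted p of 0.017, its lowest M0505 array (9.31) lying under its highest STOSE array (9.35). Lss (-0.68, adjusted p = 0.019) and Dhcr7 (-0.25, adjusted p = 0.047), the lanosterol synthase and the sterol reductase that acts on the B ring, were also past the adjusted p. The calls of Cyp51, Lss and Dhcr7 were lost on leaving out M0505 replicate 2, M0505 replicate 3 or STOSE replicate 1, with adjusted p values between 0.0503 and 0.153, and that of Dhcr7 also without STOSE replicate 2 (0.081). Sqle, the squalene epoxidase, and Ebp, the sterol isomerase, did not pass the adjusted p, with intervals of the log2 difference from -0.35 to 0.40 and from -0.27 to 0.07.

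**Figure D2:**
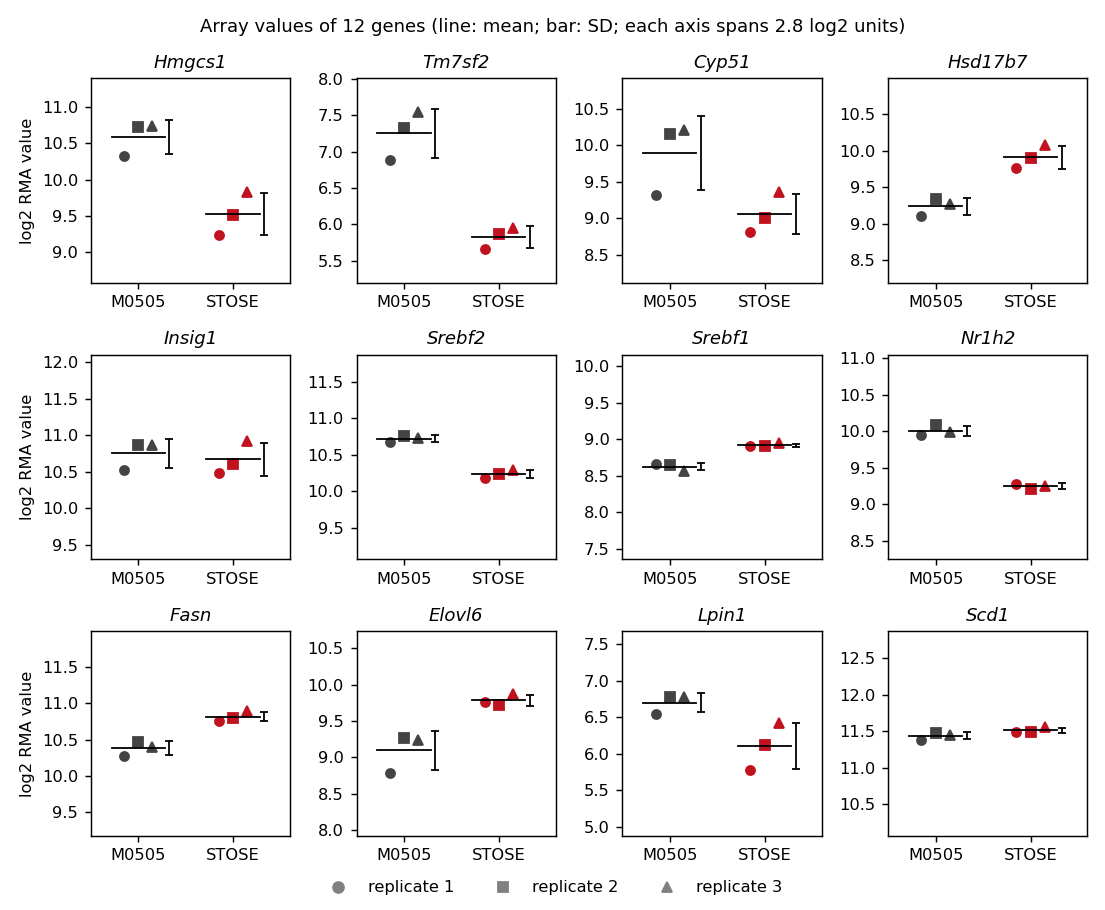
Log2 RMA values (y axis, spanning 2.8 log2 units in every panel) of 12 of the genes on the 3 M0505 and 3 STOSE arrays, with symbols for replicate numbers, horizontal lines for the means and bars for the SD beside them. Replicate 1 is the lowest point of both lines for Hmgcs1, Tm7sf2, Cyp51, Hsd17b7, Insig1, Srebf2, Fasn, Lpin1 and Scd1. Srebf2 and Nr1h2 are separated between lines with almost no spread within a line.

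The regulators changed in both directions, most of them with small spread, except Insig1 and Nr1h3. Of 7 genes, 4 fell, 1 rose and 2 did not pass, and the median log2 fold change was -0.49. Nr1h2, which encodes LXRβ, read 9.94, 10.08 and 9.99 in M0505 and 9.28, 9.21 and 9.25 in STOSE. The groups were far apart relative to their spread, and the level fell by 0.76 on the log2 scale (SE 0.06, adjusted p = 1.4e-05). Srebf1 rose modestly, from 8.65, 8.64 and 8.57 to 8.90, 8.91 and 8.94, a log2 difference of 0.30 (SE 0.06, adjusted p = 2.1e-03). Srebf2, by contrast, read 10.68, 10.76 and 10.73 in M0505 and 10.18, 10.24 and 10.29 in STOSE. It fell by 0.49 (SE 0.06, adjusted p = 1.6e-04), opposite in sign to Srebf1. The probes of Srebf1 do not separate its SREBP-1a and SREBP-1c forms here, since 1 probe set was read for the gene.

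The escort protein gene Scap fell by 0.70 (SE 0.06, adjusted p = 1.7e-05) at the probe set used. A second Scap probe set, at 5.34 and 5.32 in M0505 and STOSE, gave -0.02. The 2 probe sets of Scap therefore disagree, although the decrease passed the test also when they were averaged, at -0.36. Insig2 fell by 0.64 (adjusted p = 1.5e-04), whereas its paralog Insig1, itself a target of SREBPs, had a log2 fold change of -0.08 with an interval from -0.39 to 0.23. Nr1h3 (LXRα) lay just above background, at 4.82 in M0505 and 4.98 in STOSE, and did not pass the test (adjusted p = 0.21). Stard4, a carrier that moves cholesterol between membranes, read 8.83, 9.43 and 9.32 in M0505 and 8.92, 8.96 and 9.24 in STOSE. These arrays overlapped, and the log2 fold change was -0.15 (SE 0.16, adjusted p = 0.44).

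In fatty acid synthesis, Acaca, Fasn and Elovl6 rose, whereas the desaturases did not. Elovl6, which elongates palmitate to stearate, had the largest increase of the 35 genes, from 8.79, 9.27 and 9.24 in M0505 to 9.76, 9.71 and 9.87 in STOSE. The groups did not overlap, with a log2 difference of 0.68 (SE 0.12, adjusted p = 1.7e-03), a 1.604-fold higher level. Fasn, the fatty acid synthase, rose by 0.43 (SE 0.07, adjusted p = 8.7e-04) and Acaca, the acetyl-CoA carboxylase that feeds it with malonyl-CoA, rose by 0.30 (adjusted p = 1.9e-03), with 0.28 at its second probe set. Acly, which supplies cytosolic acetyl-CoA, had a log2 fold change of 0.12 that did not pass (adjusted p = 0.25). It passed when arrays were centred on the median of the genes with a symbol (0.32, adjusted p = 0.00997).

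None of the desaturases rose, although Scd1 (0.27) and Scd2 (0.20) passed the adjusted p when arrays were centred on the median of the genes with a symbol. Scd1 and Scd2, which make monounsaturated fatty acids, had log2 fold changes of 0.07 (interval -0.06 to 0.21) and 0.00 (interval -0.14 to 0.15). They are close paralogs, so probes may read both. Of the front-end desaturases of polyunsaturated fatty acids, Fads2 fell by 0.29 (adjusted p = 0.018) and Fads1 had -0.14 (adjusted p = 0.076). The Fads2 call was lost without M0505 replicate 2 (adjusted p = 0.061) and without M0505 replicate 3 (0.056). It was also lost with the methods' t-test (0.071) and when arrays were centred on the median of the genes with a symbol (-0.09, adjusted p = 0.37). Lpin1, a phosphatidate phosphatase and an SREBP target, read 6.55, 6.78 and 6.77 in M0505 and 5.78, 6.12 and 6.42 in STOSE. It fell by 0.59 (SE 0.15, adjusted p = 9.3e-03), with a spread in STOSE (SD 0.32) larger than in M0505 (SD 0.13), and the call was lost after a further quantile normalization (-0.40, adjusted p = 0.078). Over the 9 genes 3 rose, 2 fell and 4 did not pass, and the median log2 fold change was 0.07, close to that of all genes.

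The sterol enzymes varied between arrays of the same line more than most genes, and they did so together. In all 18 of them replicate 1 was the lowest of the 3 arrays in M0505 and also the lowest in STOSE, and STOSE replicate 3 was the highest. The 3 conditions together held for 8.45% of all genes and 9.01% of the genes brighter than the median. They also held for Stard4, for 7 of the 9 fatty acid genes and for 3 of the 7 regulators, hence for 29 of the 35 genes (82.9%). The median deviation of the sterol enzymes from the mean of their line was -0.34, 0.17 and 0.16 on M0505 replicates 1, 2 and 3 and -0.19, 0.01 and 0.22 on STOSE replicates 1, 2 and 3, on the log2 scale. Over all genes the same medians lay between -0.01 and 0.01.

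The size of this spread set the sterol enzymes apart from their regulators. The median pooled SD was 0.265 for the 18 sterol enzymes, 0.058 for the regulators, 0.083 for the fatty acid genes and 0.092 for all genes, and 13 of the 18 sterol enzymes exceeded the 95th percentile of all genes (0.214). Cyp51 (99.6th percentile), Sc4mol (99.4) and Idi1 (99.3) were the most variable. Srebf2 stood at the 14.9th percentile and Srebf1 at 6.33. The arrays of Srebf2 met the same 3 conditions as those of the enzymes, over a much smaller range. Insig1 (95th), Stard4 (97.4) and, of the fatty acid genes, Lpin1 (96.8) stood with the enzymes, with Elovl6 at 93.2. Pmvk, Ebp and Sc5d were the least variable of the sterol enzymes, between the 47.3rd and the 57.0th percentile, and met the 3 conditions all the same. This pattern was noticed in the values and is given as a description, and its cause was not tested. The other genes of cholesterol synthesis, listed next, met the 3 conditions in 2 of 10 cases and the isoprenoid branch genes in 0 of 12. The other surrounding lists described below met them in 7 of 30 (fatty acid supply), 4 of 21 (triglyceride) and 4 of 22 cases (oxidation). The counts were 3 of 16 for SREBP processing, 3 of 16 for uptake and 1 of 14 for LXR targets. The share of all genes was 8.45%.

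**Figure D3:**
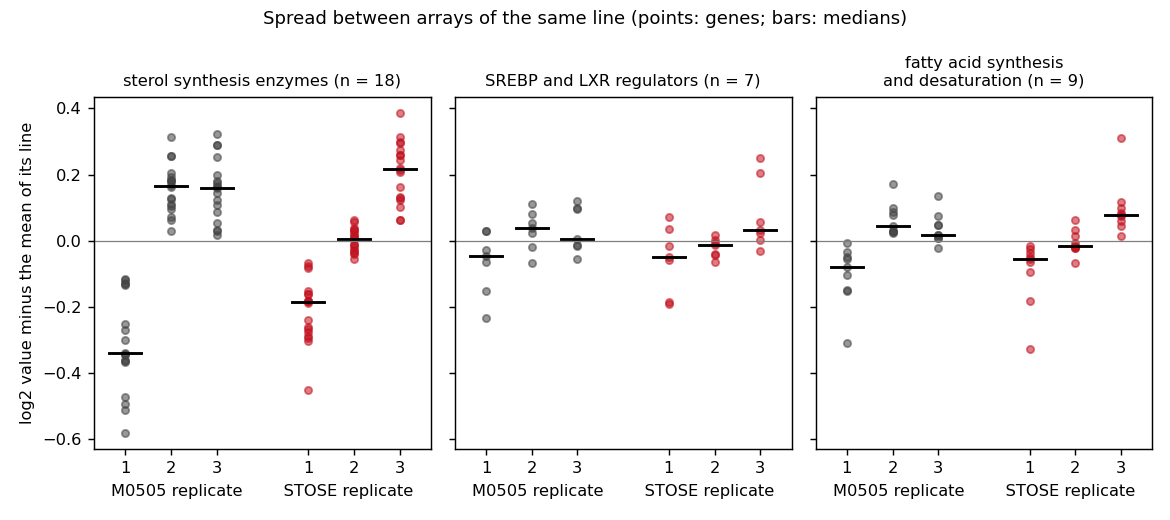
Deviation of each gene's log2 value from the mean of its own line (y axis) on each array (x axis), for 18 sterol synthesis enzymes, 7 regulators and 9 fatty acid genes; points are genes and bars are medians. The sterol enzymes sit under 0 on replicate 1 of both lines and above 0 on STOSE replicate 3, with medians of -0.34, -0.19 and 0.22. The medians of the regulators stay between -0.05 and 0.04, and their points far from 0 are Insig1 and, in STOSE, Nr1h3.

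Because replicate 1 held the lowest values of the sterol enzymes, the comparison was repeated without it in both lines, a choice made after seeing the data. With 2 arrays per line, 12 of the 18 sterol enzymes were lower at the adjusted p alone in place of 8, and 2 were higher as before. The array left out was the lowest of all 18 in both lines, which narrows their spread. The calls gained therefore follow in part from the choice and are no separate evidence. Of all genes, 1595 were lower at 2-fold in this setting, against 1548 with all arrays. The share of all genes lower at the adjusted p alone is not given for this setting. The 12 of 18 therefore have no background at the same threshold. Mvk, Mvd, Fdps and Sc4mol were the genes gained (adjusted p from 0.013 to 0.0495), and Cyp51 joined Hmgcs1 and Tm7sf2 past 2-fold with a log2 fold change of -1.004. Without M0505 replicate 1 alone, Cyp51 (-1.12) and Nsdhl (-1.04) were past 2-fold as well, giving 4 genes lower.

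The rest of the pathway was read from lists of genes that surround the 35. Of 10 further cholesterol synthesis genes, 3 rose and 2 fell at the adjusted p alone, with a median of 0.10. Lbr, which encodes the lamin B receptor and is the other sterol C14 reductase, rose in STOSE from 8.55, 8.49 and 8.29 to 10.06, 9.88 and 9.92. The log2 difference of 1.51 (SE 0.09, adjusted p = 1.8e-06) was opposite in direction to that of Tm7sf2, which catalyses the same reaction. One of the 10 was lower past 2-fold. Of 16 genes that process SREBPs or sense sterols, 4 rose and 7 fell with a median of -0.07, and Erlin1, an endoplasmic reticulum protein tied to the INSIG pathway, was the only one past 2-fold (log2 difference 1.66). The 12 genes of the isoprenoid branch, which draws on farnesyl diphosphate, had 4 higher and 5 lower and a median of 0.07. Pdss1, a subunit of the enzyme that makes the ubiquinone side chain, rose by 2.06 on the log2 scale, and Rabggtb, a subunit of the Rab geranylgeranyl transferase, by 1.11.

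Sterol uptake, esterification and lysosomal handling had the lowest median of the 8 surrounding lists, with 9 of 16 genes (56.2%) lower, 3 (18.8%) higher and a median of -0.40. Among all genes 24.8% were lower and 31.6% higher, and among the brighter ones 37.8% and 38%. Vldlr, a lipoprotein receptor, fell from 6.95, 6.93 and 6.83 to 4.49, 4.75 and 4.67, under background on 2 of 3 arrays, so M0505 was at least 4.54-fold higher. Lrp8, a related receptor, rose by 2.03. Soat1, which esterifies cholesterol for storage, fell by 1.34, Nceh1, which hydrolyses the ester, by 1.03, and Stard5, a sterol carrier, by 1.82. Both the esterifying and the hydrolysing enzyme were thus lower. Among 14 LXR targets and genes of sterol efflux or oxidation, 3 rose and 6 fell with a median of -0.15. Abca1, the exporter of cholesterol and a classic LXR target, rose from 7.76, 6.96 and 7.07 to 9.63, 9.47 and 9.23, by 2.18 on the log2 scale. Its replicate 1 was the highest array of each line, the reverse of the sterol enzymes. Cyp46a1 (-1.54) and Nr1h4 (-1.29) fell, and Cyp7b1 was called lower too, but at 4.80 in M0505 and under background in STOSE its fold was not measurable. Of 30 genes of fatty acid supply, elongation and activation, 10 rose and 11 fell with a median of -0.01. Elovl7, an elongase of very long chains, fell from a mean of 8.59 to 4.21, under background, so M0505 was at least 14.6-fold higher, and Mlxipl, the carbohydrate-responsive factor ChREBP, fell by 2.31.

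**Figure D4:**
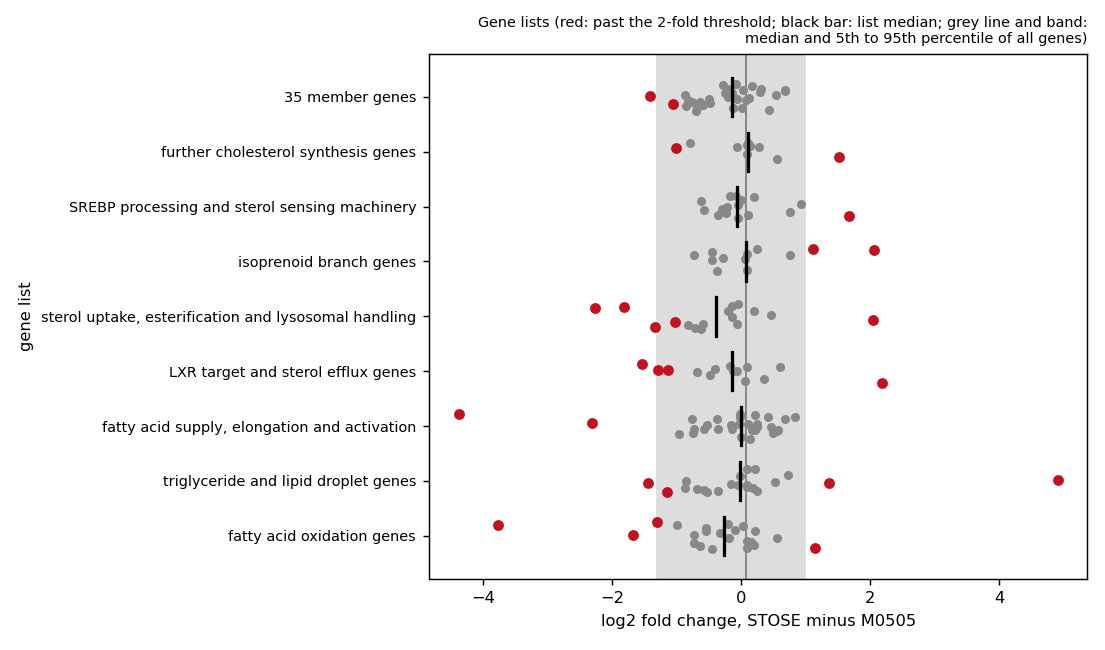
Log2 fold change (STOSE minus M0505, x axis) of the 35 genes and of 8 lists of surrounding genes (y axis); red points are past the 2-fold threshold, black bars are list medians, and the grey line and band give the median and the 5th to 95th percentile of all 20405 genes (-1.31 to 0.99). The 35 genes form a tight cloud with 2 red points, while single genes of the surrounding lists lie far outside the band.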

How the data were processed

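RNA of 3 M0505 and 3 STOSE samples, named biological replicates in the labels, was measured on Affymetrix arrays. Per the labels and the paper, the authors processed the arrays with RMA in Affymetrix Expression Console, which corrects background, quantile normalizes and summarizes probes, and deposited log2 values. Software version, annotation release and build are not given in the sources used here. The authors' columns of line means and linear fold changes were not used, and 0 value columns lacked a sample. Of 28944 probe sets, 23530 had a symbol, for 20405 genes (1613 with several). Lines were compared with lmFit and eBayes of limma 3.58.1 (R 4.3.3), without a block. On simulated data for this comparison, 199 of 200 genes given changes past 2-fold were recovered among 20405, with 0 false calls at the 2-fold threshold. Noise was drawn separately for each gene. Smaller changes, which include those of Hmgcs1 and Tm7sf2, were not covered. Calls at the adjusted p alone and genes that vary together were not covered either. With 3 arrays against 3, a two-sided exact permutation test cannot go below p = 0.1, so none was run. Arrays have no read depth, and their number limits precision. Same-line arrays correlated at 0.9969 to 0.9987 and arrays of different lines at 0.9429 to 0.950.

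The members and lists were chosen with earlier results of these data known. Array values are given for members past the threshold or with the largest change in each direction within a role, and genes of the lists are named if past the threshold. Further members were named after their values were seen. The background level was also chosen with the data known. Results of some genes are not reported here. Promoters came from RefSeq. Alternatives covered normalization, filters on dim genes, probe set averaging, variance model, call rule, the methods' t-test, the replicate block and each array left out.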

Additional observations from a re-analysis of the deposited data

How the results depend on the processing

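The 35 genes were refitted in 16 alternative settings, of which Pmvk, Nr1h3 and Lpin1 were tested in 15, being among the dimmest 50% of genes. Of the 20 genes past the adjusted p alone, 15 kept direction and call in every setting that tested them, and Cyp51, Lss, Dhcr7, Fads2 and Lpin1 lost the call in at least 1. The adjusted p alone gave 6 members higher and 14 lower, and a fold threshold of 1.5 gave 2 and 11. The treat test against 1.5-fold gave 1 lower, and centring on the median of genes with a symbol (added after seeing the data) gave 1 lower at 2-fold and 10 higher at the adjusted p alone. With an array left out, 1 to 4 members were lower at 2-fold. The methods' t-test called 18 members before and 15 after Benjamini-Hochberg adjustment, 9 of them lower. Of the 20405 genes it called 11595 before and 10122 after adjustment. Over all genes, the adjusted p alone called 6454 higher and 5066 lower, and a fold threshold of 1.5 called 2245 and 2871.

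At the adjusted p alone, the surrounding lists had 3 higher and 2 lower (further cholesterol synthesis), 4 and 7 (SREBP processing), 4 and 5 (isoprenoid), 3 and 9 (uptake), 3 and 6 (LXR), 10 and 11 (fatty acid supply), 6 and 8 (triglyceride) and 3 and 13 (oxidation). A fold threshold of 1.5 gave 2 further cholesterol synthesis genes lower, 3 SREBP processing genes higher and 1 lower, 1 isoprenoid gene lower, 8 uptake genes lower, 2 LXR genes higher, 2 supply genes higher and 6 lower, 5 triglyceride genes lower and 7 oxidation genes lower. The treat test gave 2 further cholesterol synthesis genes lower, 2 SREBP processing genes higher, 4 supply genes lower and 4 triglyceride genes lower. Centring on the median of genes with a symbol gave 0 further cholesterol synthesis genes lower, 2 SREBP processing genes higher, 1 supply gene higher and 1 triglyceride gene lower. The 1 further cholesterol synthesis gene lower past 2-fold was also lost (0 lower) with arrays centred on their own medians and without replicate 1 of both lines, and its count was 0 to 1 with an array left out. Without the dimmest 50% of genes, 1 supply gene was lower.

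Genes not called changed sign in some settings. Centring on the median of genes with a symbol gave Acat2 0.0698, Mvd 0.0769, Idi1 0.130, Ebp 0.102, Insig1 0.118, Stard4 0.0477 and Fads1 0.0562. With an array left out, the log2 fold change ranged from -0.30 to 0.0028 for Acat2, from -0.38 to 0.0045 for Mvd, from -0.31 to 0.0744 for Idi1, from -0.16 to 0.13 for Sqle, from -0.21 to 0.0102 for Insig1 and from -0.035 to 0.028 for Scd2. Without replicate 1 of both lines, Sqle was at -0.0644 and Scd2 at -0.017, and a further quantile normalization gave Scd2 -0.0400. The cause of these changes was not tested.

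The labels give both lines replicates 1 to 3 without saying that a number marks a shared day or batch. Same-numbered arrays deviated together with r = 0.256, 0.0421 and 0.249 across genes for numbers 1, 2 and 3. Each M0505 array correlated best with the STOSE array of its own number. STOSE replicate 2, however, correlated best with M0505 replicate 3 (0.119). M0505 replicate 1 with STOSE replicate 3 gave -0.204, and M0505 replicate 3 with STOSE replicate 1 gave -0.293. In all 18 sterol enzymes replicate 1 was the lowest array of both lines. Because the labels state no pairs, the main fit had no block, and whether the arrays were paired was not tested. With the replicate number as a block, 2 members were lower at 2-fold, and 6 were higher and 17 lower at the adjusted p alone. Of all genes this fit called 1548 lower and 1001 higher at 2-fold. The share of all genes at the adjusted p alone is not given for it, so the 6 and 17 have no background at that threshold. Mvk (0.038), Fdps (0.042) and Sc4mol (1.8e-03) were the calls gained.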

Other observations

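Genes that break down fatty acids were examined as a counterpart to those that make them. Of 22 fatty acid oxidation genes on the array, 13 (59.1%) were lower and 3 (13.6%) higher in STOSE at the adjusted p alone (limma), with a median log2 fold change of -0.27. Among all genes 24.8% were lower and 31.6% higher, and among genes brighter than the median 37.8% and 38%. Cpt1c, a carnitine palmitoyltransferase relative best known from brain, fell by 3.77 on the log2 scale, from 9.43, 9.33 and 9.25 to 5.64, 5.50 and 5.55. Acaa2, the mitochondrial thiolase, fell by 1.68 and Cpt2, which hands acyl groups to CoA inside mitochondria, by 1.31. Acadl, the long-chain acyl-CoA dehydrogenase, was the only one of the list past 2-fold in the other direction, with 1.15.

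Triglyceride and lipid droplet genes moved both ways. Of 21 on the array, 6 (28.6%) rose and 8 (38.1%) fell, with a median of -0.02. Gpam, which begins glycerolipid synthesis, fell by 1.15 and Bscl2, the droplet protein seipin, by 1.44, whereas Dgat2, which completes triglyceride, rose from 6.02, 6.09 and 6.10 to 7.21, 7.60 and 7.46, a log2 difference of 1.35. The monoglyceride lipase Mgll rose by 4.90.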
